A study of Mus musculus with 8 samples.

Results

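The proteasome genes were measured on dorsal root ganglia of E12.5 mouse embryos, in 4 samples from Erk1/2CKO(Wnt1) embryos, called the Erk1/2 mutant here, and in 4 wild-type samples. Members were all probes whose platform gene symbol begins with Psm, followed by a letter from a to g and a digit, which gave 67 probes of 45 genes among the 25697 probes and 16593 named genes of the Illumina bead array. The rule also took in Psmc3ip, a recombination factor that carries the name of a proteasome subunit it binds, and Psme3ip1, a partner of the activator Psme3, neither of which is a subunit. Psma8, Psmb11, Psmd3, Psmg4 and Psmf1 had no probe name in the table used and were not analysed here. The mutant lacks Erk1/2, the terminal kinases of the MAPK pathway, where a Wnt1-driven recombinase is active, which is the neural crest lineage. Neurons and glia of the ganglia arise from that lineage, while vessel, blood and immune cells in the same dissection do not. Whether either kinase was also missing outside the lineage is not stated in the labels. The labels name the wild-type embryos also as controls and give no alleles beyond this genotype, nor whether the controls carried Cre. Ganglia came from 3 litters, and the labels assign no sample to a litter and leave unsaid whether embryos were pooled, so p-values measure the spread between these samples. The comparison asked whether Psmb5 differs alone or together with the rest of the complex.

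The proteasome degrades proteins that carry ubiquitin chains. Its barrel-shaped 20S core is made of outer rings of alpha subunits and inner rings of beta subunits, and 3 kinds of beta subunit carry the active sites. The 19S particle caps the core: its ATPases unfold substrates and open the gate, and its lid removes ubiquitin. In neurons the complex also takes part in axon growth and in the turnover of synaptic proteins.

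Values are log2 bead intensities after background correction and quantile normalization, with 1 probe, the brightest, standing for each gene, and a level is compared between arrays and never between probes. A gene was tested where its 8-array mean exceeded the median probe (6.71 on the log2 scale), and was called at a Benjamini-Hochberg adjusted p under 0.05 in limma over all tested features. Of the 45 proteasome genes 41 were tested, and Psma1, Psma6, Psmb8 and Psmb9 stayed under this level. Median raw intensity per array was 138 to 147 in the mutant and 144 to 159 in the wild-type. All 6 sensory neuron markers with a probe were above the filter level. Wild-type replicates 3 and 4 stood apart from the other 6 arrays on the first principal component (25.7 and 21.1, against -12.2 to -3.02), so results are also given without them. The codes of the 8 arrays share 1 number and differ in a letter, A to D for the wild-type and E to H for the mutant. What number and letter stand for is not stated in the labels. Any effect that follows the letters cannot be told apart from genotype. No probe name for the deleted genes was in the table used, so the labels were not checked on them.

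One of the 41 tested proteasome genes was called, Psmb5, which fell in the mutant. Psmb5 encodes the beta subunit with the chymotrypsin-like active site, the main target of proteasome inhibitor drugs. Over all 8935 named genes 2.51% were called, 1.11% as lower in the mutant and 1.40% as higher, where 0 proteasome genes were. A count of 1 in 41 is close to this background. At an adjusted p under 0.1 the count was still 1, against 4.96% of all genes. None of the other 40 genes was called by limma, and 2 of the 40 had an unadjusted p under 0.05, against 18.1% of all genes. Over all probes with no filter, Psmb5 was again the 1 called probe of the 67 proteasome probes, where 1.14% of all probes were called, and 7 of the 67 had an unadjusted limma p under 0.05, against 12.4% of all probes.

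Psmb5 had log2 intensities of 9.84, 9.68, 9.77 and 9.82 in mutant replicates 1 to 4, against 10.49, 10.71, 10.80 and 10.59 in wild-type replicates 1 to 4. Every mutant array lay below every wild-type array. As deposited, before any correction, the bead intensities were 866, 822, 811 and 965 in the mutant and 1681, 1894, 1747 and 1712 in the wild-type. Such raw values also carry differences between whole arrays, and separation at this stage was not particular to Psmb5. Those of Psmb6 were 6993, 6924, 6047 and 7008 in the mutant and 8164, 9813, 8947 and 9266 in the wild-type. After normalization the log2 difference of Psmb5 was -0.87 ± 0.09 (SE, n = 4 per group; 95% interval -1.07 to -0.68; limma adjusted p = 0.00161), a mutant level of 54.7% of the wild-type on this scale. By p-value Psmb5 ranked 9 among the 8935 named genes, and by difference it ranked 26 among the 99 genes called lower. In a bulk sample, fewer cells of a type and less RNA per cell cannot be told apart. Psmb5 rests on 1 probe, and the annotation also lists a Psmb5 pseudogene, whose part in the signal was not tested.

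The fall of Psmb5 was called under each of the 20 other settings tried, including leaving out any single array. Its difference ran from -0.97 to -0.82 over these settings and its limma adjusted p from 5.8e-04 to 0.0255. Without wild-type replicates 3 and 4 it was -0.82 ± 0.10 (limma adjusted p = 0.00572). Without wild-type replicates 1 and 2 it was -0.92 ± 0.10 (limma adjusted p = 0.00148).

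**Figure D1:**
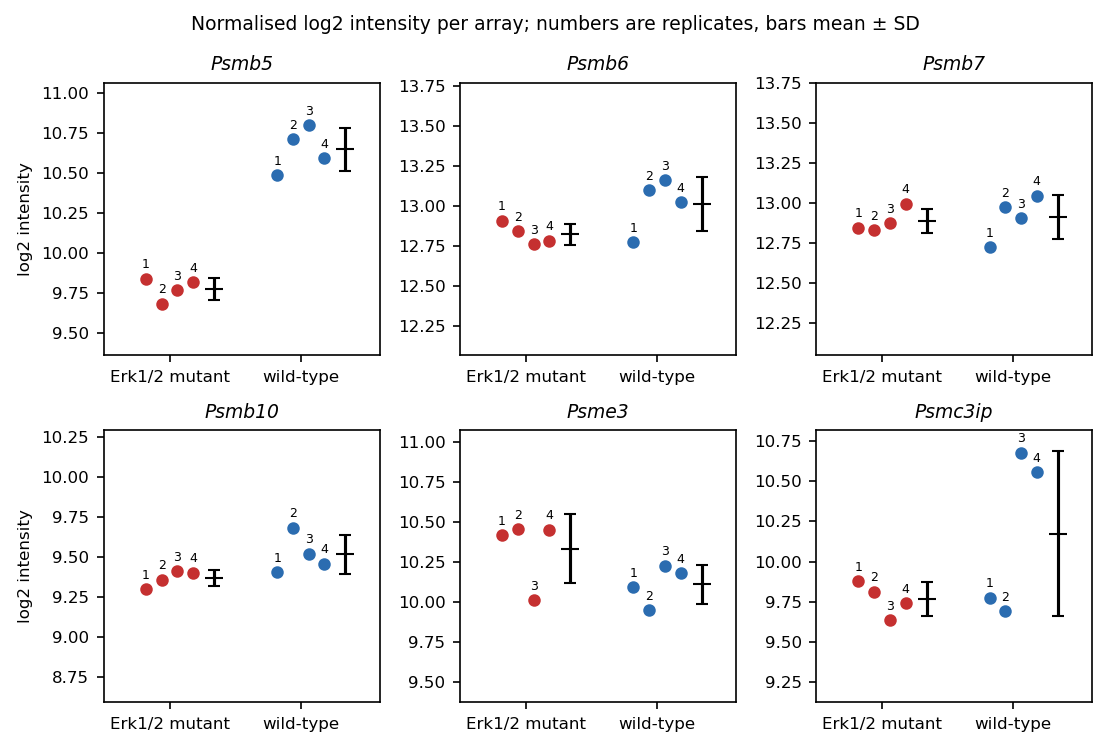
Normalised log2 intensity of Psmb5, Psmb6, Psmb7, Psmb10, Psme3 and Psmc3ip on each array, with Erk1/2 mutant arrays in red and wild-type arrays in blue; points carry their replicate number and bars are mean ± SD (n = 4), and each panel spans the same log2 range. The 4 mutant points of Psmb5 lie between 9.68 and 9.84, below all wild-type points, while in the other panels the groups overlap.

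The promoters of Psmb5 and of Psmb6, the gene of another catalytic subunit, are shown because only the first of these genes was called. They are the 250 bases before the transcript start on the coding strand, from RefSeq on GRCm38.p6, with capitals marking matches to the core of the antioxidant response element, TGACNNNGC, the motif through which Nfe2l1 is known to act on proteasome genes.
Psmb5: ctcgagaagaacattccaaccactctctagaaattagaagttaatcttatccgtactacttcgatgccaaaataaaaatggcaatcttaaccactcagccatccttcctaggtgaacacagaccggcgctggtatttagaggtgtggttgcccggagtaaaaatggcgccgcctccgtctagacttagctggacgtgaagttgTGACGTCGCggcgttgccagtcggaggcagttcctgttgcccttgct
Psmb6: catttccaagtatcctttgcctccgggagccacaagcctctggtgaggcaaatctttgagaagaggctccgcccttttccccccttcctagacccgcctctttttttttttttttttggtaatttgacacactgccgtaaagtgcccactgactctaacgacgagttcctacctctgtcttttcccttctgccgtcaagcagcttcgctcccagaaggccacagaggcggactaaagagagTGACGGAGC
The Psmb5 stretch is chr14:54617996-54618245 on the minus strand, and its match, TGACGTCGC, lies 47 to 39 bases before the transcript start. The Psmb6 stretch is chr11:70525107-70525356 on the plus strand, and its match, TGACGGAGC, covers the last 9 bases before the start. Both promoters thus hold the same core and neither holds the CCAAT box or the ETS core CCGGAAG in the window searched. That window ran from 250 bases before to 50 after the start, on both strands. Of the 45 genes 39 had a promoter in the table, with 43 promoters in all. The element's core was in 6 of the 43 member promoters (14.0%) and in 12.4% of the 32851 promoters of all genes. CCAAT was in 15 of the 43 (34.9%), against 37.4% of all promoters. CCGGAAG was in 17 of the 43 (39.5%), against 8.86% of all promoters, a set that also holds non-coding genes. Overlap between matches of different motifs was allowed, and a match is a description of sequence only.

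The other beta subunits of the constitutive core did not pass the test. Psmb6, which carries the caspase-like site, had 12.91, 12.84, 12.76 and 12.78 in the mutant, against 12.77, 13.10, 13.16 and 13.02 in the wild-type. Wild-type replicate 1 lay within the mutant range. Its log2 difference was -0.19 ± 0.10 (95% interval -0.40 to 0.02; limma adjusted p = 0.323). Psmb7, which carries the trypsin-like site, had 12.85, 12.83, 12.87 and 13.00 in the mutant, against 12.73, 12.97, 12.91 and 13.05 in the wild-type. The groups overlapped, with a log2 difference of -0.03 ± 0.09 (95% interval -0.22 to 0.17; limma adjusted p = 0.905), and its other 2 probes differed by -0.08 and -0.06. The structural subunits Psmb1, Psmb2, Psmb3 and Psmb4 differed by -0.09, 0.01, -0.15 and 0.03, with limma adjusted p-values from 0.454 to 0.960. Of the 7 beta subunits 1 fell, 0 rose and 6 did not pass.

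Relative to the mean of the 11 other tested core subunits on the same array, with the wild-type mean set to 0, Psmb5 stood at -0.77, -0.91, -0.80 and -0.77 in the mutant and at -0.05, 0.07, 0.11 and -0.13 in the wild-type. The 4 mutant values average -0.81 ± 0.06 (SD, n = 4), close to the gene's own difference. Against the 6 other beta subunits alone the mutant arrays ran from -0.94 to -0.74 and the wild-type arrays from -0.17 to 0.09. No test was run on this ratio, since Psmb5 was singled out with earlier results known. The 95% interval of Psmb5 lay wholly below that of 39 of the 40 other tested genes. The exception was Psmc3ip, whose interval (-0.89 to 0.07) was wide.

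**Figure D2:**
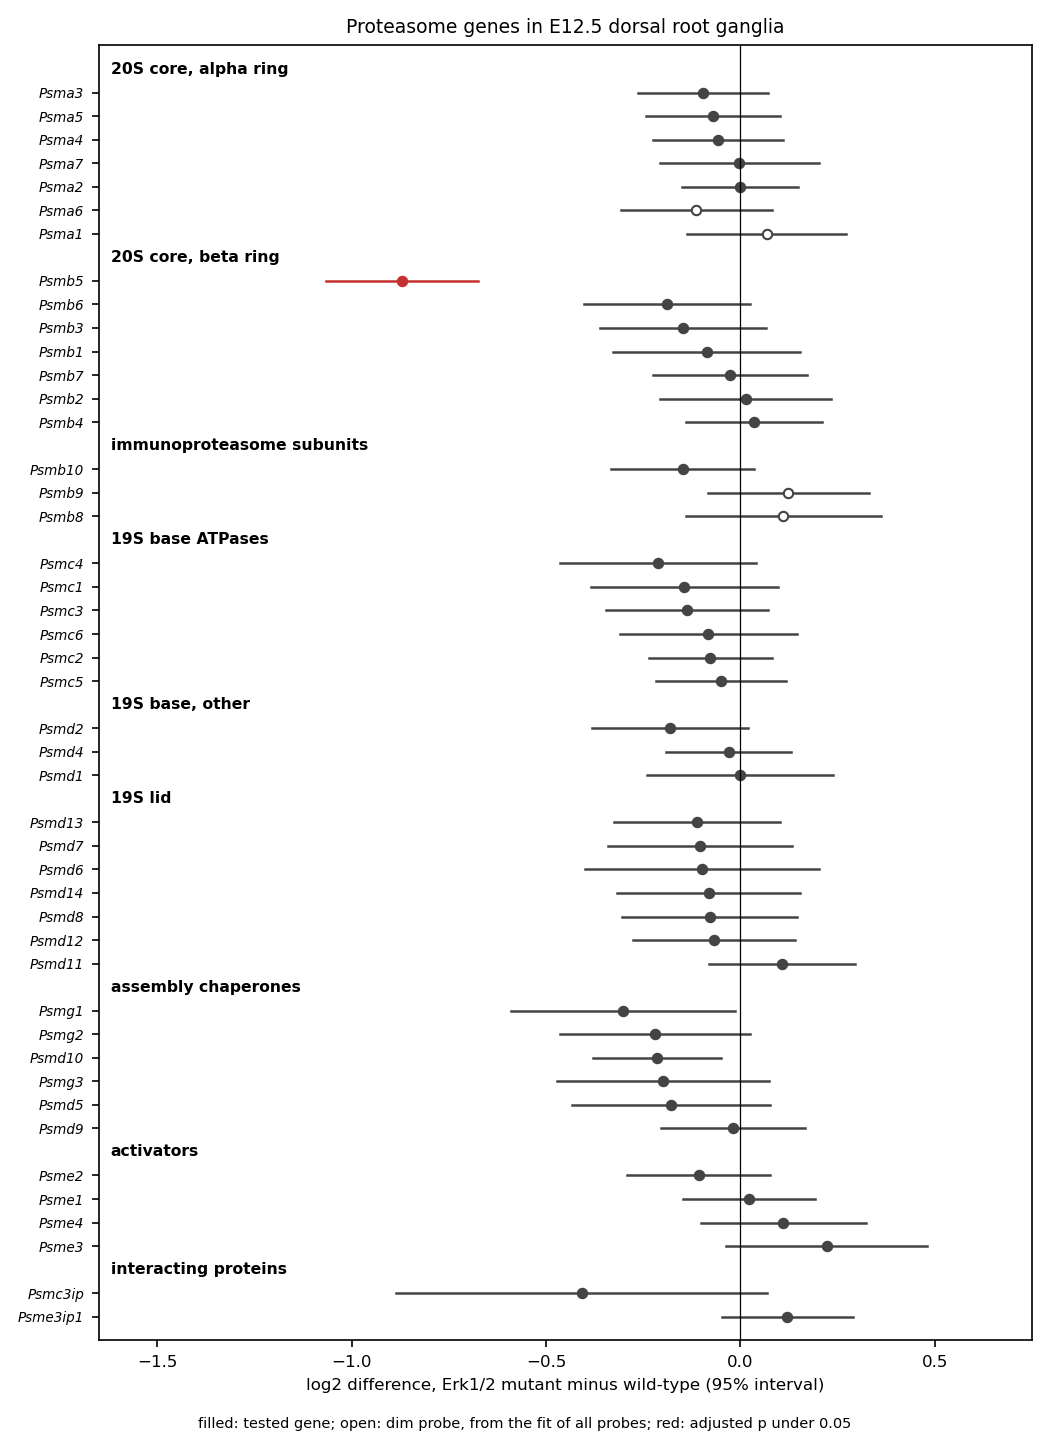
Log2 difference (Erk1/2 mutant minus wild-type) with its 95% interval for each proteasome gene, grouped by role; filled points are tested genes, open points are genes under the filter level, taken from the fit of all probes. Psmb5, in red, stands at -0.87, and the other 40 tested genes lie between -0.41 and 0.22.

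The alpha subunits, which form the gated outer rings, had differences close to 0 after quantile normalization. None of the 5 tested members passed, and all 5 differences were negative, from -0.10 for Psma3 (limma adjusted p = 0.539) to -0.0016 for Psma2 (limma adjusted p = 0.995). The intervals of these 5 genes lay within -0.26 and 0.20. Psma4, Psma5 and Psma7 differed by -0.06, -0.07 and -0.0024. The dim probes of Psma1 and Psma6 differed by 0.07 and -0.11 in the fit of all probes. The size of these differences depends on the normalization. Raw intensities of Psma2 were 13322 to 15220 in the mutant and 15642 to 18404 in the wild-type. With arrays scaled to their medians only, the median over the tested proteasome genes was -0.20 and that of all genes -0.06.

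Immunoproteasome subunits replace the catalytic beta subunits in immune cells and after interferon; Psmb8 takes the place of Psmb5. Psmb8 was under the filter level on average, with 6.45, 6.63, 6.43 and 6.25 in the mutant, against 6.64, 6.30, 6.20 and 6.18 in the wild-type. The groups overlapped, and its difference was 0.11 ± 0.12 (limma adjusted p = 0.783 over all probes). Psmb9, the counterpart of Psmb6, had 6.66, 6.95, 6.78 and 6.59 in the mutant, against 6.68, 6.52, 6.56 and 6.72 in the wild-type, with a difference of 0.12 ± 0.10 (limma adjusted p = 0.680 over all probes). Psmb10, the counterpart of Psmb7, was tested and had 9.30, 9.36, 9.41 and 9.40 in the mutant, against 9.40, 9.68, 9.52 and 9.46 in the wild-type. Mutant replicate 3 lay within the wild-type range, and the difference was -0.15 ± 0.08 (95% interval -0.33 to 0.03; limma adjusted p = 0.368). Beside these values, 0 of 9 tested macrophage markers passed and all 9 differences were positive, with a mean level per array, centred on each gene's mean, of -0.52 to 0.95 in the mutant and -0.36 to -0.30 in the wild-type. Without mutant replicate 4, 7 of these 9 markers were called, in a fit that called 2.24% of all genes. That array had the lowest mutant level of these markers, so the count follows in part from leaving it out and is no separate test. The part of immune cells in the immunoproteasome values was not tested. Of the 5 tested genes of antigen presentation and the interferon response 0 passed. Their median was -0.0011. Irf1, a factor induced by interferon, differed by 0.09 ± 0.15 (limma adjusted p = 0.790) and B2m, the light chain of class I molecules, by -0.39 ± 0.10 (limma adjusted p = 0.0790). For B2m all mutant arrays lay below all wild-type arrays, as for 5.65% of all genes. In the other tested genes of this list the groups overlapped.

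The 6 ATPases of the 19S base, Psmc1 to Psmc6, unfold substrates and thread them into the core. All 6 differences were negative and 0 of 6 passed, with a range from -0.21 for Psmc4 (95% interval -0.46 to 0.04; limma adjusted p = 0.349) to -0.05 for Psmc5 (limma adjusted p = 0.773). The base scaffold subunits Psmd1 and Psmd2 and the ubiquitin receptor Psmd4 differed by -0.0011, -0.18 and -0.03, with 0 of 3 passing. In the lid 0 of 7 passed, and Psmd14, its deubiquitinating enzyme, differed by -0.08 ± 0.11 (limma adjusted p = 0.735). The lid subunits ran from -0.11 for Psmd13 to 0.11 for Psmd11, and 6 of the 7 differences were negative. Without wild-type replicates 3 and 4 the lid had 2 negative and 5 positive differences, from -0.29 for Psmd6 to 0.14 for Psmd11.

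Assembly chaperones, which build the core rings (Psmg1 to Psmg3) or the 19S base (Psmd5, Psmd9, Psmd10) and leave the finished particle, had the lowest median of the roles with over 2 tested genes, -0.21. None of the 6 passed and all 6 differences were negative. Their mean level, each gene centred on its mean over the arrays, was -0.11 to -0.08 in the mutant, against -0.08, 0.05, 0.18 and 0.22 in wild-type replicates 1 to 4, so that wild-type replicate 1 lay at the mutant level. Psmg1 had 9.48, 9.66, 9.49 and 9.30 in the mutant, against 9.49, 9.68, 10.03 and 9.94 in the wild-type. Its difference of -0.30 ± 0.13 (limma adjusted p = 0.251) did not pass, and wild-type replicates 3 and 4 were the high arrays. Without them it was -0.10 (limma adjusted p = 0.701).

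Psmd10, also known as gankyrin, was chosen after its values were seen, as the only tested member besides Psmb5 whose groups did not overlap. It had 10.71, 10.68, 10.81 and 10.72 in the mutant, against 10.95, 10.84, 10.996 and 10.999 in the wild-type. The difference was -0.22 ± 0.07 (95% interval -0.38 to -0.05; limma adjusted p = 0.163), which did not pass. Its next probe had 9.87, 10.14, 10.09 and 10.13 in the mutant, against 10.42, 10.31, 10.28 and 10.60 in the wild-type, a difference of -0.34 (limma adjusted p = 0.138 over all probes). The dimmest probe differed by -0.23, and the mutant arrays lay below the wild-type arrays for all 3 probes, which measure the same RNA. Without wild-type replicates 3 and 4 the brightest probe differed by -0.16 (limma adjusted p = 0.383). Groups that did not overlap, with the mutant below, were found for 2 of the 41 tested proteasome genes and for 5.65% of all genes. None of the 41 had all mutant arrays above, against 6.30% of all genes. A second probe of Psmb2 also had every mutant array below the wild-type arrays, while its brightest probe did not.

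Of the activators, which open the core without ATPases, 4 were tested, 0 passed and 3 had positive differences. Psme3, a nuclear activator, had 10.42, 10.45, 10.01 and 10.45 in the mutant, against 10.09, 9.95, 10.23 and 10.18 in the wild-type. Mutant replicate 3 lay inside the wild-type range while the other 3 mutant arrays lay above it, and the difference was 0.22 ± 0.12 (95% interval -0.04 to 0.48; limma adjusted p = 0.340). Psme4, another activator, had 12.18, 12.18, 11.97 and 12.24 in the mutant, against 11.89, 11.96, 12.21 and 12.06 in the wild-type, a difference of 0.11 ± 0.10 (limma adjusted p = 0.578). Its dimmer probe differed by -0.12, so the sign rests on the probe chosen. Psme1 and Psme2, induced by interferon, differed by 0.02 and -0.11. Psme3ip1 had 10.88, 10.88, 10.91 and 10.79 in the mutant, against 10.62, 10.76, 10.78 and 10.82 in the wild-type, a difference of 0.12 ± 0.08 (limma adjusted p = 0.433). The replicate groups of all 3 genes overlapped.

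Psmc3ip, which acts with recombinases in meiosis, had 9.88, 9.81, 9.63 and 9.74 in the mutant, against 9.77, 9.69, 10.68 and 10.56 in the wild-type. Wild-type replicates 3 and 4 were high, and replicates 1 and 2 lay inside the mutant range. The difference of -0.41 ± 0.21 (limma adjusted p = 0.343) was 0.035 without replicates 3 and 4 and -0.85 (limma adjusted p = 0.00178) without replicates 1 and 2.

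Apart from Psmb5, the proteasome genes had small differences of mostly one sign. Of the 40 other tested genes 33 had negative and 7 had positive differences, with a median of -0.08, while 49.5% of all named genes had negative differences and their median was 0.0018. With arrays scaled to their medians only, 37 were negative and 3 positive with a median of -0.20, while 63.8% of all genes were negative and their median was -0.06. The lean was smaller when wild-type replicates 3 and 4 were left out. When replicates 1 and 2 were left out instead, 32 were negative and 8 positive with a median of -0.14, where that of all genes was 0.0025. The mean level of the 40 genes, each centred on its mean over the 8 arrays, was -0.02, -0.03, -0.07 and -0.04 in mutant replicates 1 to 4, against -0.07, -0.0075, 0.12 and 0.12 in wild-type replicates 1 to 4. The mutant arrays thus lay close to wild-type replicates 1 and 2. Without replicates 3 and 4, 23 differences were negative and 17 positive (alpha ring 3 of 5 negative, beta ring 3 of 7 with Psmb5 counted, ATPases 5 of 6, chaperones 6 of 6, activators 2 of 4), the median was -0.02, and Psmb5 was the 1 gene called, where 2.37% of all genes were. In that fit 48.6% of all genes had negative differences.

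Without wild-type replicates 1 and 2 instead, 6 proteasome genes were called, all as lower, beside 13.6% of all genes called and 6.80% called lower. They were Psmb5, Psmc3ip, Psmg1 (-0.50), Psmg2 (-0.40), Psmc4 (-0.40) and Psmd2 (-0.31). For Psmg2, Psmc4 and Psmd2 the differences without replicates 3 and 4 were -0.04, -0.03 and -0.05. Other measures moved with these 2 arrays: the mean level of 12 tested cell cycle genes was -0.37 to -0.13 in the mutant, while the wild-type had -0.19, -0.20, 0.76 and 0.63 in replicates 1 to 4. That of 7 erythroid markers was -0.28 to -0.06 in the mutant, while the wild-type had -0.10, -0.37, 0.79 and 0.40 in replicates 1 to 4. In the fit without replicates 1 and 2 all 12 cell cycle genes and 4 of the 7 erythroid markers were called. Their part in the small differences was not tested.

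**Figure D3:**
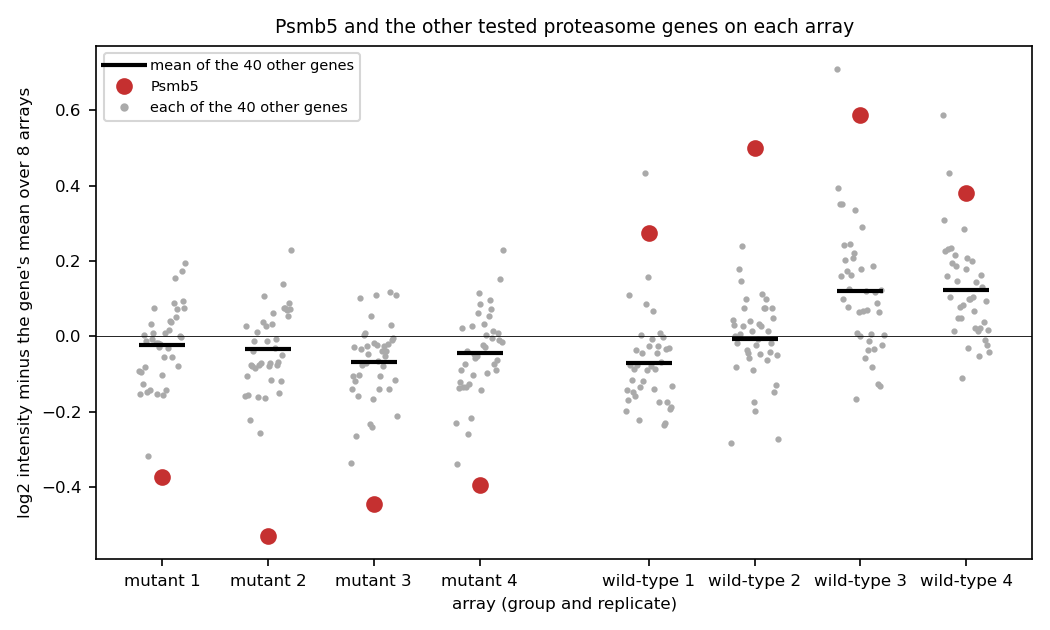
Log2 intensity on each array minus the gene's mean over the 8 arrays, for Psmb5 (red), each of the 40 other tested proteasome genes (grey) and their mean (black bar), with mutant arrays on the left. Psmb5 lies below every other gene on each mutant array, while the mean of the others is -0.07 to -0.02 on mutant arrays and reaches 0.12 on wild-type replicates 3 and 4.

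For 18 of the 45 genes several probes were measured, 2 or 3 for each. Psmb5 is not among them. None of these probes was called, so agreement in call says nothing on how well probes match. In no gene did the probes differ by over 0.5 on the log2 scale. The widest spread was 0.27 for Psmd9, whose probes differed by -0.02 and -0.29, and the next was 0.23 for Psme4. For Psmb2 the probes above the filter differed by 0.01 and -0.15. Of all 67 probes 53 had negative and 14 had positive differences, and 50.4% of all probes on the array were negative.

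Partners of the proteasome outside the gene family gave no call. Of 7 other proteasome proteins 0 passed, with a median of -0.06. Pomp, the maturation factor of the core, differed by 0.0046 ± 0.07 (limma adjusted p = 0.985) and Sem1, a lid component, by 0.05 ± 0.08 (limma adjusted p = 0.818). Uchl5, a deubiquitinase bound to the 19S base, stood at -0.30 ± 0.08 (limma adjusted p = 0.102). Of 6 ubiquitin shuttles and segregase genes 0 passed, with a median of 0.03. Vcp, the ATPase that extracts ubiquitinated proteins, differed by -0.30 ± 0.08 (limma adjusted p = 0.102) and Ubqln1, a shuttle, by 0.0083. All mutant arrays lay below all wild-type arrays for Uchl5, Vcp and Nsfl1c (-0.21, limma adjusted p = 0.188), as for 5.65% of all genes. In the other tested genes of these lists the groups overlapped. Uchl5 and Nsfl1c, like Hspd1 among the chaperones, were named after their values were seen.

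Transcription factors known to act on proteasome genes did not pass either, 0 of 7, with a median of -0.04. Nfe2l1, which raises proteasome genes when the complex is inhibited, differed by 0.03 ± 0.10 (95% interval -0.20 to 0.26; limma adjusted p = 0.909) and Nfyc, a CCAAT-binding subunit, by -0.08 ± 0.08 (limma adjusted p = 0.619). Of 4 tested ubiquitin-conjugating genes 0 passed, with a median of -0.04, Ube2d2a at 0.13 ± 0.09 and Ube2k at -0.01 ± 0.08.

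Among 11 genes of heat shock and protein stress 1 fell, 0 rose and 10 did not pass. Over all genes 1.11% were called lower and 1.40% higher. The list's median was -0.14, against 0.0018 over all genes. The list's mean level was -0.13 to -0.06 on mutant arrays and 0.02 to 0.13 on wild-type arrays. The gene that fell was Hspe1, the small subunit of the mitochondrial chaperonin. It had 10.18, 10.18, 10.12 and 10.25 in the mutant, against 10.77, 10.60, 10.72 and 10.76 in the wild-type. All mutant arrays lay below all wild-type arrays, as for 5.65% of all genes. Its difference was -0.53 ± 0.07 (limma adjusted p = 0.00677). When wild-type replicates 3 and 4 were left out it was -0.50 (limma adjusted p = 0.0296). Hspd1, the large subunit of the same chaperonin, differed by -0.36 ± 0.10 (limma adjusted p = 0.0929), also with all mutant arrays below. In the other tested genes of the list the groups overlapped.

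In the 8 lists of cell type markers and cell cycle genes 0 genes were called with all 8 arrays, and for each list the mean levels of mutant and wild-type arrays overlapped. The groups did not overlap for 2 of these genes, both named after their values were seen. They were the mitotic kinase gene Cdk1 (-0.71, mutant below, limma adjusted p = 0.0875) and the embryonic globin gene Hbb-y (0.09, mutant above, limma adjusted p = 0.537). Over all genes the groups did not overlap for 5.65% with the mutant below and for 6.30% with the mutant above. Cdk1 was called when arrays were scaled to their medians only, and without wild-type replicate 2. The part of cell composition in the difference of Psmb5 was not tested. The lists hold 6 sensory neuron, 1 glial, 9 macrophage, 7 erythroid, 4 endothelial, 3 muscle, 5 mesenchyme and 12 cell cycle genes that were tested, with median differences of 0.01, -0.52, 0.70, -0.42, -0.13, -0.02, -0.02 and -0.55.

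**Figure D4:**
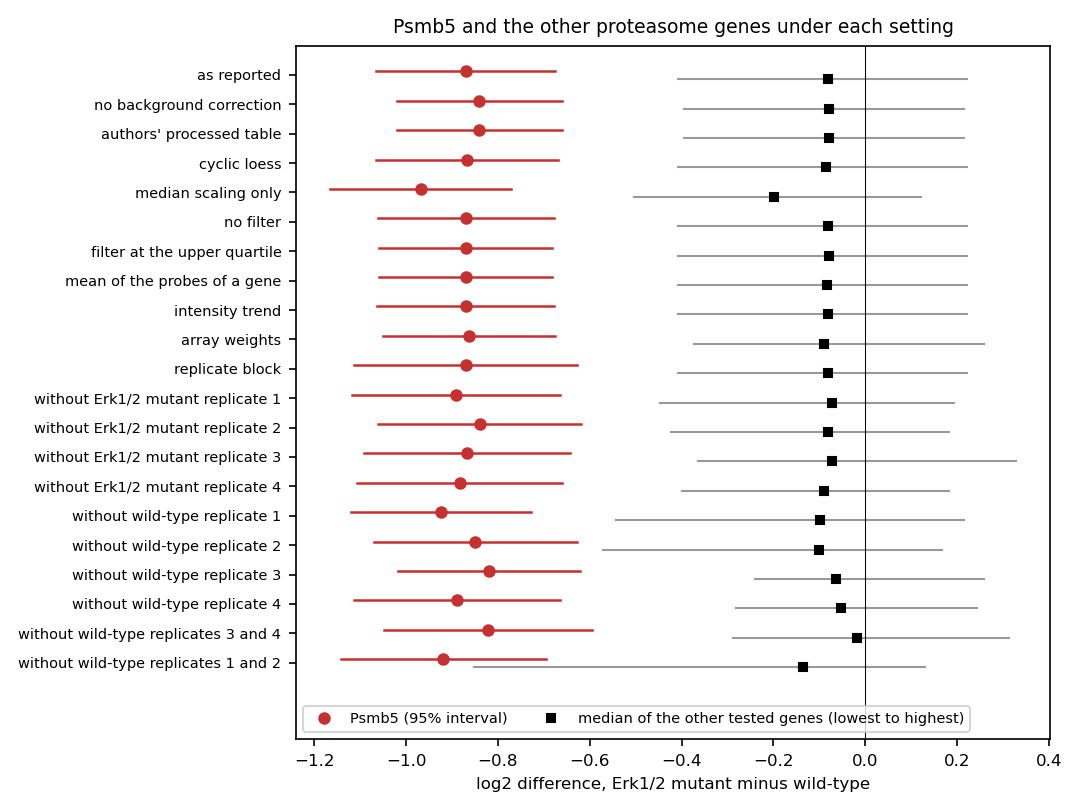
Log2 difference of Psmb5 with its 95% interval (red) and the median (black square) and range (grey line) of the other tested proteasome genes, under the reported setting and 20 others. Psmb5 stays between -0.97 and -0.82, and the median of the others between -0.20 and -0.02.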

How the data were processed

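Per the file headers, the deposited table holds bead intensity on a linear scale, 1 column per sample; BeadStudio is the tool named in the submitters' processing notes, with no version given in the sources used here. The lowest value is 80.3, and the table has no detection p-values or control probes, so neqc could not be used. The authors' deposited log2 table equals log2 and quantile normalization of these intensities (largest difference 5.0e-09) and was used as an alternative. Intensities were corrected with normexp (offset 50), put on the log2 scale and quantile normalized with limma 3.58.1 in R 4.3.3. Probes were named from the platform annotation, updated through Entrez identifiers to GRCm38.p6 symbols; 23978 of 25697 had 1 symbol, 0 several and 1719 none. After the filter, 9664 features (8935 named genes, 729 unnamed probes) were fitted with lmFit and eBayes, as a 2-group contrast of mutant over wild-type without covariates, and adjusted over the 9664. A second fit took all 25697 probes. Errors of differences are SEs of the fit, and the number of arrays limits precision. The procedure was tested on simulated data, with values drawn independently for each feature. These held no shift shared by genes on an array, so they say nothing on the effect of wild-type replicates 3 and 4. Members, lists and tests were chosen with earlier results of these data known. Values per array are given for called members, Psmb5 to Psmb7, the 3 highest and 3 lowest differences and the immunoproteasome subunits; of each pathway list, called genes or the 2 brightest are named. The same was planned for the tissue lists, whose genes are given as lists because no result turns on one. Cdk1 and Hbb-y are the exceptions, named after their values were seen. Alternatives changed the background correction, normalization, filter, choice of probe, variance model, array weights, replicate block, threshold and arrays included.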

Additional observations from a re-analysis of the deposited data

Results flagged for a closer look

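In 4 of 90 groups of 4 arrays, each group holding the brightest probe of 1 of the 45 genes in 1 genotype, a single array lay far from the other 3 by Dixon's test at the 95% level; chance flags about 1 in 20 groups. Psme3 was low on mutant replicate 3 at 10.01, with the other mutant arrays at 10.42 to 10.45. Psma7 was high on wild-type replicate 3 at 12.73, with the others at 12.48 to 12.49, and so was Psmd8 at 12.18, with the others at 11.81 to 11.86. Psmd5 was low on wild-type replicate 1 at 8.08, with the others at 8.38 to 8.43.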

How the results depend on the processing

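Psmb5 was lower and called in all 20 alternatives, and was the lowest of the tested proteasome genes in each; leaving out 1 array gave -0.92 to -0.82. The counts of called proteasome genes and probes were 1 in every alternative run for them, except that without wild-type replicates 1 and 2 they were 6 and 5. The median over the proteasome genes, -0.08, was -0.10 to -0.06 without 1 array, and -0.20 when arrays were scaled to their medians only, a setting that moved the median of all genes to -0.06. Of all named genes 224 were called, against 67 and 79 without mutant replicates 1 and 2, 128 and 89 without wild-type replicates 3 and 4, 341 with array weights and 1218 without wild-type replicates 1 and 2. With the replicate block 82 were called; Psmb5 stayed at -0.87 (limma adjusted p = 0.0255) and Hspe1 missed the threshold (limma adjusted p = 0.0501). Replicate numbers do not pair the arrays, and same-numbered arrays had correlations of deviations of -0.08, -0.28, -0.07 and -0.05. Hspd1 was called with the mean of its probes (-0.43), and Vcp (-0.46), B2m (-0.51) and the cell cycle gene Cdk1 with median scaling. Some uncalled differences turned sign, that of Psmc3ip (-0.41) among them. Median scaling gave -0.016 for Psme4, -0.17 for Pomp, -0.12 for Sem1, -0.10 for Ubqln1 and -0.084 for Nfe2l1. Cyclic loess gave -0.019 for Pomp, the mean of probes -0.0058 for Psme4 and 0.0064 for Ube2k, and array weights 0.011 for Ube2k. Without wild-type replicates 3 and 4, Psmb7 stood at 0.036, Psmc3ip at 0.035 and Ubqln1 at -0.027. Without replicates 1 and 2, Pomp stood at -0.037 and Sem1 at -0.019. Leaving out 1 array gave ranges across 0 for Psmb7 (-0.089 to 0.018), Pomp (-0.025 to 0.030), Ubqln1 (-0.015 to 0.046), Nfe2l1 (-0.017 to 0.0998), Ube2k (-0.056 to 0.039) and Irf1 (-0.033 to 0.22). The cause of these changes was not tested. With no detection p-values, how far dim probes such as those of Psmb8 and Psmb9 lie above background is unknown.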

Other observations

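The nearest tested genes on either side of Psmb5 in the annotation order of its chromosome were not called. Prmt5, a protein arginine methyltransferase, differed by -0.15 ± 0.10 (limma adjusted p = 0.468) and Acin1, a splicing-associated gene, by 0.22 ± 0.08 (limma adjusted p = 0.173), with all 4 mutant arrays above the 4 wild-type arrays, as for 6.30% of all genes. The next gene after Acin1, 1700123O20Rik, differed by -0.25 ± 0.08 (limma adjusted p = 0.134), with all mutant arrays below, as for 5.65% of all genes. Of the 8 tested neighbours, 4 on each side, 0 were called, with differences from -0.53 for Rem2, a small GTPase gene (± 0.33), to 0.34 for Slc7a8, an amino acid transporter gene (± 0.15).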
